A study of Drosophila melanogaster with 4 samples.

Results

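Sequence U of the Drosophila melanogaster genome joins scaffolds that had been assigned to no chromosome in FlyBase release 5. Its members here are all clusters of significant H3K9me2 enrichment that lie on U in the authors' replicate-set list, named the pooled list below. They were chosen by position and not by score or length, although earlier results of these data were known. They number 662 of the 4277 clusters of that list. Chromatin came from whole wild-type Oregon-R embryos, 14 to 16 h old, and was precipitated with an antibody to H3K9me2, dimethylated lysine 9 of histone H3, described in the labels as a new lot. The study has 2 H3K9me2 ChIP libraries and 2 input libraries, 1 input for each ChIP, and all 4 share strain, genotype and stage. Each ChIP replicate has its own cluster list, with 906 of 3579 clusters on U in replicate 1 and 1000 of 3238 in replicate 2. The inputs enter only through the authors' calls. Whether the replicates are separate embryo collections is not stated in the labels, and the spread between them may be technical. Whole embryos mix all cell types of the stage, and the depth behind each cluster is unknown because the lists hold no read counts.

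H3K9me2 is deposited by histone methyltransferases and read by heterochromatin protein HP1a, and in flies it marks the constitutive heterochromatin around centromeres, which is rich in transposable elements and satellite repeats. Such repeats are hard to assemble and to map, and scaffolds that cannot be placed on an arm come largely from this compartment. The scaffolds of U were joined end to end in an order that is not a chromosomal order. A position on U is therefore an address and not a distance from a centromere. The scaffold borders, assembly gaps and repeats of U were not analysed here, since no release 5 sequence was at hand.

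U is 10.0 Mb long, or 7.19% of the sequence in the file headers without Uextra, and it held 30.8% of the base pairs in pooled clusters. It held 32.2% in replicate 1 and 33.8% in replicate 2. By number, 15.5% of the pooled clusters lay on U, against 25.3% in replicate 1 and 30.9% in replicate 2. The replicate lists thus held more clusters on U than the pooled list, 1.37 times as many in replicate 1 and 1.51 times in replicate 2. On the Het sequences, the mapped heterochromatin assembled apart from the arms, these ratios were 1.07 and 1.16. Over everything off U they were 0.739 and 0.619, so outside U the pooled list was the longest. These differences were not tested.

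The pooled domains on U ranged from 1.00 kb to 103 kb with a median of 7536 bp. The middle 50% lay between 3961 and 15153 bp, and the longest 10% exceeded 28.5 kb. The replicate medians were 5399 bp in replicate 1 and 4642 bp in replicate 2, a mean of 5021 ± 535 bp (SD, n = 2). The longest clusters were 84.1 kb in replicate 1 and 78.5 kb in replicate 2. Off U the median clusters measured 2111 bp in the pooled list, 2481 bp in replicate 1 and 2732 bp in replicate 2. On the Het sequences they measured 8562, 8058 and 7291 bp, longer than on U in all 3 lists. A minority of long domains held much of the length. The 109 longest of the 662 pooled domains, 16.5%, held 50% of the covered base pairs, and each of them was at least 20992 bp long. The 19 domains of 50 kb or more held 15.8% of the length, and the 41 domains under 2 kb held 0.684%. In the replicates only 5 and 4 clusters reached 50 kb. At the lower end, 13 pooled domains on U had the minimum length of the pooled list, 1001 bp. No U cluster had the minimum length of its own replicate list, which was 1301 bp in replicate 1 and 1302 bp in replicate 2.

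**Figure D1:**
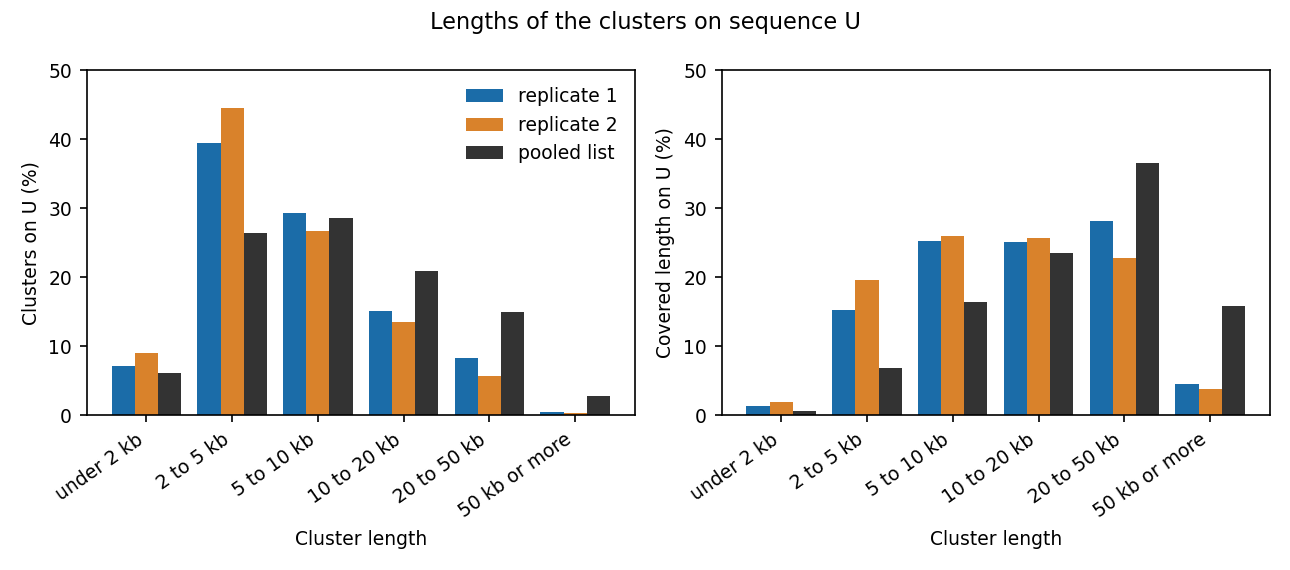
Lengths of the H3K9me2 clusters on sequence U in replicate 1, replicate 2 and the pooled list, as the percentage of clusters (left) and of covered base pairs (right) in each length class. Clusters of 2 to 5 kb were the commonest class in both replicates, 39.5% and 44.5%, and the 20 to 50 kb class held the most length in the pooled list, 36.5%.

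The 10 longest pooled domains were all touched by both replicates. The longest spanned 103 kb from 1582518 to 1685046 and consisted of 5 clusters in replicate 1 and 6 in replicate 2, which covered 96.5% and 93.1% of it. The second, 88.6 kb from 341782 to 430370, was divided into 2 clusters in each replicate with 98.6% and 97.1% covered. The third, 86.7 kb from 5737905 to 5824576, was almost fully covered, over 99.7% and 99.4%, and consisted of 2 and 3 clusters. The fourth, 86.7 kb from 6043344 to 6129995, consisted of 4 clusters in each replicate. The next, 79.9 kb from 563761 to 643703, was the only one of the 10 that was a single cluster in a replicate, replicate 2, where 98.1% of it was covered. The remaining 5, from 61.6 to 78.8 kb long, began at 460836, 6875730, 1909150, 5889284 and 6221228. Over all 10, replicate 1 covered between 89.1% and 99.9% and replicate 2 between 87.2% and 99.4%. Of these 10 domains 5 lay in the first 4 Mb of U and 5 beyond 5.5 Mb, and none lay between. Their scores stood between percentiles 84.9 and 95.3 of the pooled list.

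The score of a cluster is the authors' own value, and its scale is not given in the sources used here. It was read as a rank, and a percentile is the percentage of clusters of the same whole list that score no higher. Clusters on U stood in the upper part of each list. The median U cluster was at percentile 88.8 in the pooled list. It was at 83.3 in replicate 1 and at 80.3 in replicate 2, on average 81.8 ± 2.11 (SD, n = 2). Percentiles of different lists are not on 1 scale, as U made up 15.5%, 25.3% and 30.9% of the clusters in these 3 lists. Of the 662 pooled domains, 654 scored above the median of the whole list and only 8 at or below it. In replicate 1, 882 of 906 were above it, and in replicate 2, 938 of 1000. The middle 50% of the U domains lay between percentiles 80.5 and 94.7 of the pooled list. High ranks were not particular to U. Among pooled clusters touched by both replicates, the median percentile was 89.3 on U, 80.1 on the Het sequences and 55.7 on the arms. U held 297 of the 428 clusters in the top 10% of the pooled list, 69.4%. Its part of the top 10% was 83.8% in replicate 1 and 82.4% in replicate 2. Among the 10 highest scores of each list, 5 were on U in the pooled list, 9 in replicate 1 and 10 in replicate 2. The highest score of both replicate lists was on U, while in the pooled list the best U domain ranked 2.

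**Figure D2:**
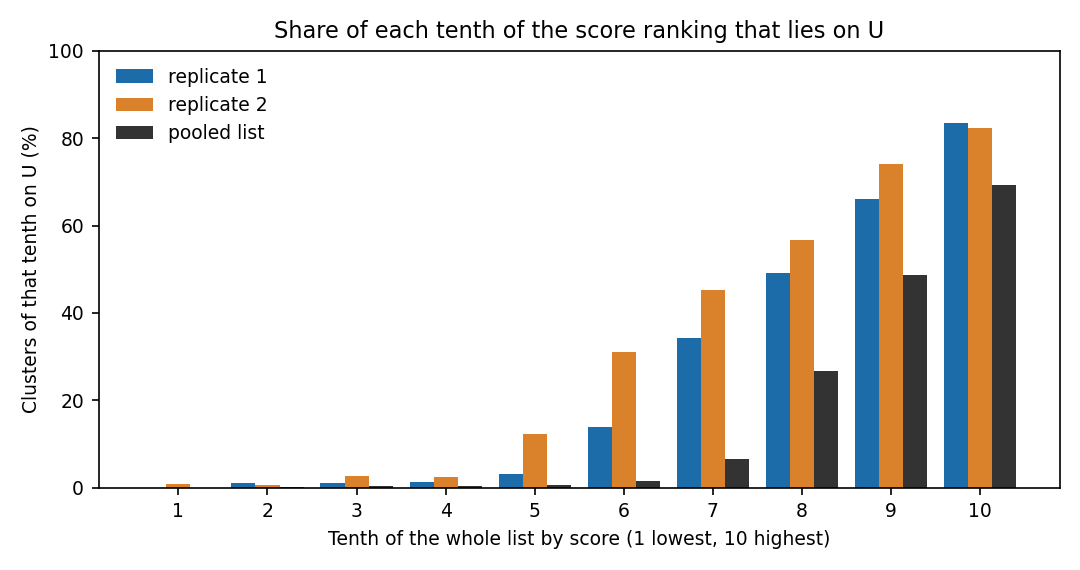
Percentage of the clusters in each 10% of the whole score ranking, from lowest to highest, that lay on sequence U, for replicate 1, replicate 2 and the pooled list. U held 83.5%, 82.4% and 69.4% of the highest 10% by this equal division and at most 0.926% of the lowest 10%.

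Length and score were only weakly related on U. Across the 662 pooled domains length and score had a Spearman's rho of 0.15, and log2 length and score a Pearson's r of 0.18, given as a description because domains of 1 list share libraries and sequence. The rho was 0.16 in replicate 1 and 0.15 in replicate 2. By length class, the median percentile in the pooled list was 79.5 for domains under 2 kb, 84.7 for 2 to 5 kb and between 89.2 and 90.2 for the 4 longer classes. Domains under 2 kb ranged from percentile 10.8 to 99.9, those of 20 to 50 kb from 44.2 to 99.8 and those of 50 kb or more from 76.4 to 97.8.

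The highest-scoring pooled domain on U was 3.71 kb long, from 2253535 to 2257243, with a score of 4.98 at percentile 99.98. It was a single cluster in each replicate, at percentile 99.92 in replicate 1 and 99.94 in replicate 2. Its 2 right-hand neighbours in the list were also among the 10 highest. They spanned 8.47 kb from 2265040 to 2273508, with a score of 4.15, and 4.58 kb from 2275708 to 2280288, with a score of 4.03. The second highest score, 4.25, belonged to a 9.21 kb domain from 3802697 to 3811901 that both replicates divided into 2 clusters. The longest of the 10, 21035 bp from 2727422 to 2748456, scored 4.15 and was 1 cluster in replicate 1 and 3 in replicate 2. High scores did not all come with replicate support. Of the 10 domains, both replicates touched 7, replicate 2 alone touched 1 and the remaining 2 had no replicate cluster. Those 2 were 1286 bp long, from 7141162 to 7142447 with a score of 4.18, and 1237 bp long, from 8109783 to 8111019 with a score of 3.99. Both were shorter than the shortest cluster of either replicate list, 1301 bp. Another 6 pooled domains on U, 1001 to 2001 bp long, all had the score 3.77, at percentile 99.4. No replicate cluster touched them, and the depth behind such scores is unknown.

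The 5 lowest-scoring domains were short and mostly seen in replicate 1 alone. They measured 1.90 to 3.42 kb, scored 0.398 to 0.579 and lay at percentiles 10.8 to 38.7 of the pooled list. Replicate 1 touched all 5, covering 76.0% to 99.4% of each, and replicate 2 touched only the one from 1096763 to 1098794, where 67.6% was covered. The lowest of all spanned 3471070 to 3472968. The other four lay within the first 1.5 Mb of U.

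Along U the covered share changed abruptly. In windows of 500 kb the mean of the replicates ranged from 48.3% ± 2.19 in window 10, from 4500001 to 5000000, to 91.6% ± 1.08 in window 12, which ends at 6000000 (SD, n = 2). The SD across the 20 full windows was 11.9 percentage points, against a median SD between replicates of 1.57 within a window. Windows 1 to 8 were covered over 71.5% to 90.6% in the pooled list, 66.2% to 89.1% in replicate 1 and 65.3% to 85.3% in replicate 2. Windows 9 to 11, between 4 and 5.5 Mb, formed a trough with 55.8% to 60.0%, 49.8% to 56.0% and 46.7% to 53.9%. In each list these 3 windows were lower than all others. Windows 12 to 21 were covered over 89.0% to 96.4% in the pooled list, 68.8% to 92.3% in replicate 1 and 67.1% to 90.8% in replicate 2. The order of the windows was shared, with rho = 0.97 and r = 0.99 between the replicates over the 20 full windows, a description across windows that share a library.

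**Figure D3:**
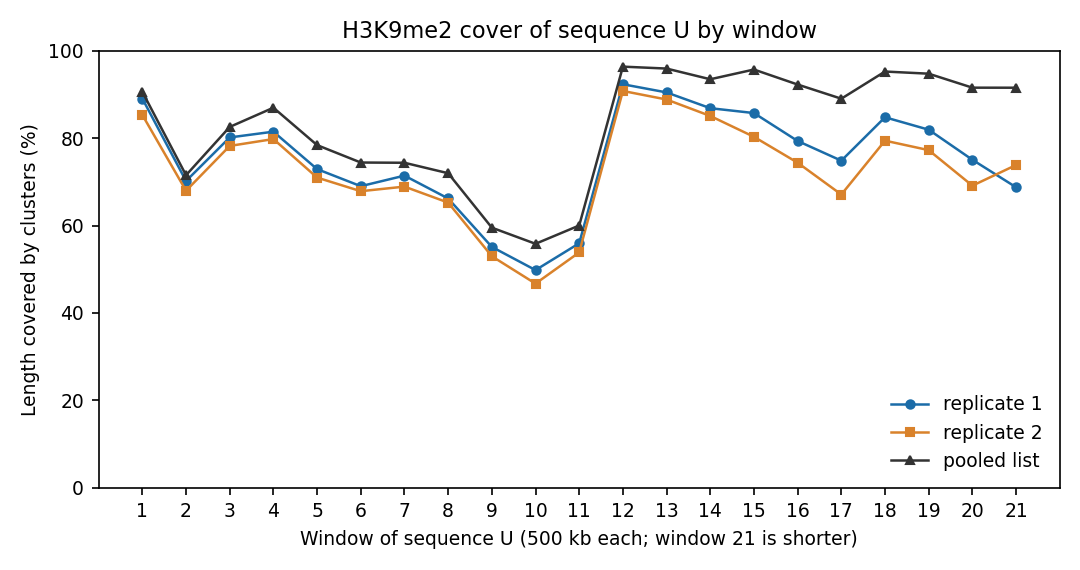
Percentage of each window of sequence U covered by H3K9me2 clusters, for replicate 1, replicate 2 and the pooled list; windows are 500 kb long, except window 21 with 49.0 kb. Windows 9 to 11 are the lowest in all 3 lists, window 12 is the highest, and the pooled list pulls away from the replicates from window 15 on.

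Tiles of 100 kb placed the change near 5.5 Mb. The tile from 5300001 to 5400000 was covered over 47.6% in replicate 1 and 44.7% in replicate 2. The next ones had 73.0% and 69.8%, then 81.7% and 80.9%, and the tile from 5600001 to 5700000 had 95.4% and 94.3%. Among all 101 tiles, 47 were covered over at least 90% in the pooled list, 13 in replicate 1 and 11 in replicate 2. Only 7 tiles were covered under 50% in both replicates. The trough held 6 of them, between 4.3 and 5.4 Mb. The remaining one, from 700001 to 800000, held no cluster in any list. Low cover was not accompanied by low scores. The median pooled percentile was 92.3, 88.1 and 93.4 in windows 9, 10 and 11, and 85.5 in window 12. The lowest window by median percentile was window 3, with 79.4, and the highest was window 11.

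The replicates and the pooled list diverged toward the right end of U. In windows 1 to 14 the pooled share exceeded the mean of the replicates by 2.44 to 7.56 percentage points, and the SD between replicates was 0.671 to 2.65. In windows 15 to 21, beyond 7 Mb, the pooled excess was 12.7 to 20.2 points and the SD 3.31 to 5.48. Replicate 1 covered more than replicate 2 in 20 of the 21 windows, with differences up to 7.75 points in window 17. The exception was the short window 21, where replicate 1 was 5.08 points lower. The base pair Jaccard index of the replicates, the shared length over the combined length, was 0.760 to 0.865 in windows 15 to 21. In windows 1 to 14 it was 0.873 in window 10 and 0.913 to 0.960 in the others.

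Uncovered stretches on U were mostly short, and a minority of long ones held most of the uncovered length. Between neighbouring pooled domains the median distance was 1219 bp, against 1272 bp in replicate 1 and 1386 bp in replicate 2. Of these 661 distances, 51 were under 100 bp and 247 were from 100 bp to under 1 kb, and together they made up 6.72% of the length between domains. The 120 distances of 5 to 10 kb held 45.0% of that length, and the 11 of 10 kb or more held 15.0%. Including both ends of U, 1.75 Mb lay outside pooled domains, 2.45 Mb outside replicate 1 clusters and 2.76 Mb outside replicate 2 clusters. Pooled domains reached close to both ends, leaving 2758 bp at the left and 196 bp at the right. Whether reads could be placed in uncovered stretches is not known here, so an uncovered stretch is not shown to lack H3K9me2.

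The longest uncovered stretch spanned 120 kb from 695752 to 816111 and accounted for 6.87% of all uncovered length in the pooled list. It held no base of a cluster in either replicate, whose own stretches ran from 695736 to 816199 and from 695342 to 816992. Without it, the rest of window 2 was covered over 94.2% in the pooled list. The next was much shorter, 21.1 kb from 1109397 to 1130475. The next 3 were 18.9 kb from 4730748 to 4749657, 17.1 kb from 5288478 to 5305596 and 14.5 kb from 430371 to 444883. In these 5 stretches at most 10 bp were covered in replicate 1 and at most 4 bp in replicate 2. The second longest stretch was 26.5 kb in replicate 1, from 2152906 to 2179409, and 34.6 kb in replicate 2, from 4513208 to 4547821.

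The spacing of the domains differed between 3 stretches of U. Between 4 and 5.5 Mb the uncovered stretches were long, with a median of 5835 bp and a middle 50% from 4171 to 7138 bp, a ratio of 1.71 between the quartiles. There 68 of 112 stretches, 60.7%, measured 5 to 10 kb. Starts of successive pooled domains lay 12615 bp apart in the median, with quartiles of 10764 and 15011 bp. This median was similar up to 4 Mb, 12700 bp, with wider quartiles of 7181 and 20902 bp. Beyond 5.5 Mb starts lay 9257 bp apart in the median. Up to 4 Mb the median stretch was 2848 bp with a quartile ratio of 6.04, and beyond 5.5 Mb it was 573 bp with a ratio of 5.06. Beyond 5.5 Mb only 2 of 328 stretches measured 5 to 10 kb and none was longer than 7.13 kb. The replicates gave medians of 6050 and 6155 bp between 4 and 5.5 Mb, with wider quartile ratios of 2.48 and 2.95, and medians of 850 and 1066 bp beyond 5.5 Mb. The shares of 5 to 10 kb were 56.2% and 56.0% in the middle and 4.56% and 5.26% on the right. The limits of these 3 parts were set after the windows had been seen.

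**Figure D4:**
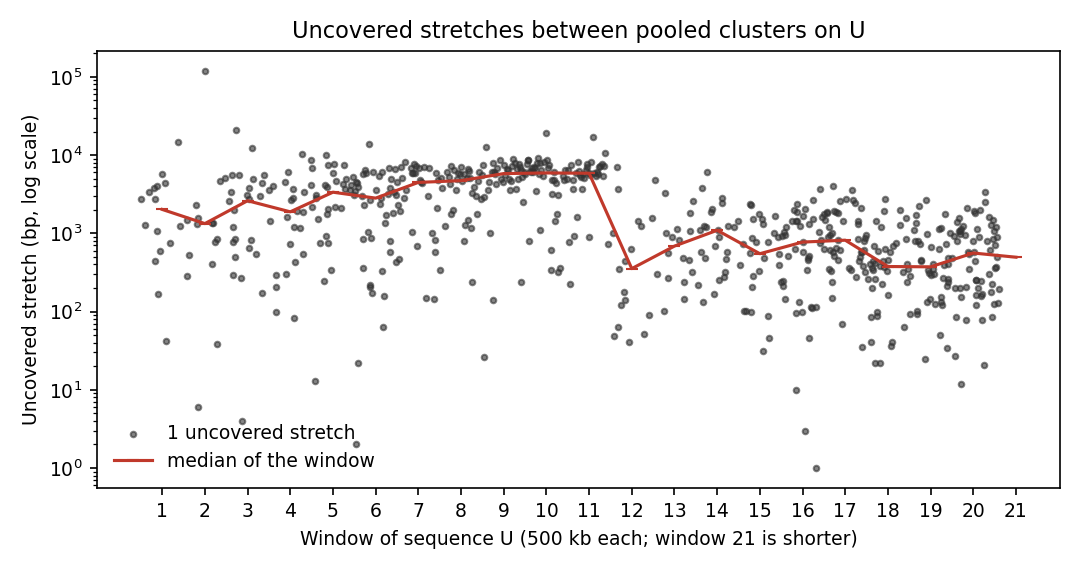
Length of each uncovered stretch between pooled H3K9me2 clusters on sequence U (points, log scale, in bp) by its place in the row of 500 kb windows, with the median of each window (line). The window medians lie between 5804 and 5919 bp in windows 9 to 11 and fall to 354 bp in window 12.

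Most uncovered stretches of the pooled list were empty in the replicates too. Of 661 stretches with both ends of U counted, 568 or 85.9% held no replicate cluster. Replicate 1 clusters alone reached into 56 more, replicate 2 clusters alone into 36, and both into 1. By base pairs, 70.4% of U was covered in all 3 lists and 17.4% in none. Only 2.73 kb were covered in replicate 1 alone and 1.34 kb in replicate 2 alone. No base was covered by both replicates and missing from the pooled list. The pooled list added 488 kb that neither replicate covered, of which 370 kb lay inside pooled domains touched by both replicates.

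The replicate lists split the pooled domains, and hardly ever joined them. Of the 906 replicate 1 clusters on U, 904 touched exactly 1 pooled domain, and of the 1000 replicate 2 clusters 997 did. The single replicate 1 cluster that spanned a pair of pooled domains ran from 1178823 to 1180817. The 3 of replicate 2 began at 2838033, 5018613 and 8657708. One replicate 1 cluster, 1372 bp from 158815 to 160186, touched no pooled domain. In the other direction, 185 of the 662 pooled domains, 27.9%, were split into 2 or more clusters in replicate 1, where over the whole pooled list 8.65% were. In replicate 2 it was 216, or 32.6%, where over the whole list 10.9% were. On the Het sequences the shares were 18.0% and 22.8%. These shares are not matched for length, as the median pooled domain measured 7536 bp on U and 2111 bp off U. Per 100 kb of touched pooled domains, unsplit ones included, replicate 1 had 11.1 clusters on U, 15.8 off U and 6.49 on the Het sequences. In replicate 2 these numbers were 12.3, 14.1 and 7.05. On U at least 1 replicate split 251 domains, both split 150, and 81 were split into the same number of clusters by both. A further 324 domains, 48.9%, were 1 cluster in each replicate, where over the whole list 41.5% were. Where both replicates touched a domain, replicate 2 had more clusters in 122 and replicate 1 in 48, and the number was equal in 405.

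**Figure D5:**
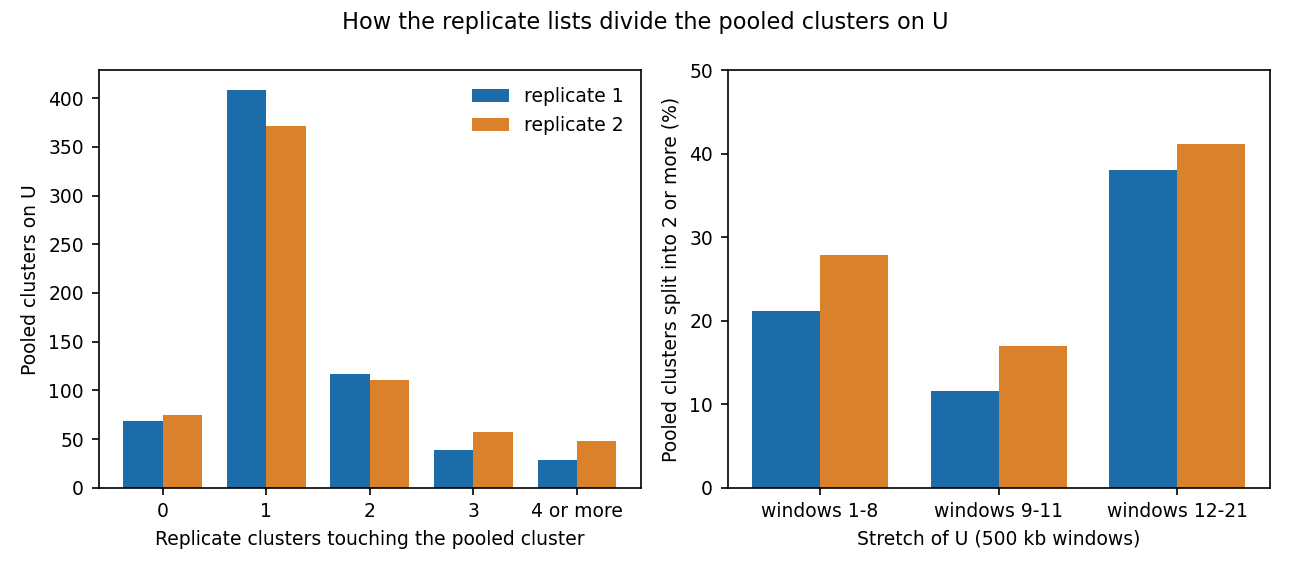
Number of pooled domains on sequence U touched by 0, 1, 2, 3 or at least 4 clusters of replicate 1 and of replicate 2 (left), and percentage of pooled domains split into 2 or more clusters in 3 stretches of U (right). Unsplit domains are the most frequent class, 408 and 371, and splitting was most frequent in windows 12 to 21, with 38.1% and 41.2%.

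Long domains were split more often. Pooled domains that were 1 cluster in replicate 1 had a median length of 6523 bp, those of 2 clusters 14294 bp and those of at least 4 clusters 42735 bp. In replicate 2 these medians were 6305, 11743 and 38422 bp. Part of this rise is built in. No replicate cluster was shorter than 1301 bp, so a domain that holds more of them has to be longer. Up to 4 Mb and beyond 5.5 Mb the pooled domains had median lengths of 8315 and 8374 bp. Replicate 1 split 21.2% of the domains up to 4 Mb and 38.1% of those beyond 5.5 Mb, and replicate 2 split 27.9% and 41.2%. In the trough between them the median length was 6608 bp and the split shares were 11.6% and 17.0%. The density of replicate clusters was lowest on the left, with 64.8, 80.7 and 116 per Mb in replicate 1 and 71.5, 84.0 and 129 per Mb in replicate 2 in the 3 stretches from left to right. The pooled list had 55.5, 74.7 and 72.1 per Mb.

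The domains with the most parts all lay beyond 6 Mb. The domain from 9302914 to 9346672, 43.8 kb long, consisted of 9 clusters in replicate 1 and 8 in replicate 2. Replicate 1 covered 94.3% of it and replicate 2 81.2%. The domain from 7360362 to 7415109, 54.7 kb long, had 7 and 8 parts. That from 8844160 to 8889600, 45.4 kb, had 8 and 6. The 2 remaining ones, from 6221228 to 6282815 and from 6364484 to 6421284, had 7 and 7 and 5 and 7 parts. They were ranked by the higher of the replicates' numbers, with ties by position, and several other domains tied with the last at 7. Those from 7876146 to 7903743 and from 9139948 to 9185903 had 7 and 3 and 7 and 6 parts. Those from 9014050 to 9053617 and from 9627581 to 9655162 had 4 and 7 and 3 and 7 parts. Of the 19 pooled domains of 50 kb or more, 17 were split in both replicates.

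The seams between parts of 1 pooled domain were narrow. Replicate 1 had 313 seams with a median of 422 bp and a maximum of 4.09 kb, and 79.6% of them were under 1 kb. Replicate 2 had 416 seams with a median of 494 bp and a maximum of 3.93 kb, and 72.8% were under 1 kb. Of the replicate 1 seams 202, or 64.5%, overlapped a replicate 2 seam, and of the replicate 2 seams 48.3% overlapped a replicate 1 seam. The overlapping ones were wider, with medians of 524 and 744 bp, against 263 and 366 bp for the others. A seam of replicate 2 was fully covered in replicate 1 in 199 cases, 47.8%, and the reverse held for 89, or 28.4%. Compared directly, 577 pairs of clusters matched one to one between the replicates. In 116 cases 1 cluster of replicate 1 corresponded to several of replicate 2, and in 39 cases the reverse. In 40 groups several clusters of each were chained together, 46 clusters of replicate 1 overlapped none of replicate 2 and 29 of replicate 2 overlapped none of replicate 1. An overlap of 1 bp sufficed here, by which 94.9% of the replicate 1 clusters and 97.1% of the replicate 2 clusters were shared. With a reciprocal overlap of at least 50% the shares were 81.7% and 74.0%.

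Edges of unsplit domains mostly lay close together in the lists. Over the 324 domains that were 1 cluster in each list, the left edges of the replicates differed by a median of 91 bp and the right edges by 92.5 bp, and 68.5% and 70.4% of them differed by at most 200 bp. Replicate clusters nested in the pooled domain. The edge of the replicate 1 cluster lay inside the pooled edge in 89.8% of cases on the left and 91.0% on the right, with median offsets of 61 and 60.5 bp. The edge of the replicate 2 cluster lay inside in 95.4% and 96.3% of 323 domains, with medians of 119 and 134 bp. The median length of these domains was 6176 bp in the pooled list, 5422 bp in replicate 1 and 5191 bp in replicate 2.

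Of the pooled domains on U, 575 of 662, or 86.9%, had a cluster of each replicate in them. Over the whole pooled list 54.6% did and on the Het sequences 79.5%. Neither these shares nor those of untouched domains below are matched for length. The median pooled domain measured 7536 bp on U, 2111 bp off U and 8562 bp on the Het sequences. For the share on U, the 95% interval by Wilson's method, which covers counting error only, was 84.1 to 89.2%. It treats the domains as independent, although they share libraries and sequence. Replicate 1 alone touched 18 other U domains and replicate 2 alone 12, and 57 were touched in no replicate. The 57, or 8.61%, stand beside 25.2% of the whole list. They were short, with a median of 1920 bp, and 24 of them were shorter than any replicate cluster. Of them 43 lay in the top 25% of the pooled scores, where 88.4% of all U domains lay. Their median percentile was 85.2, against 89.3 for the U domains touched by both replicates. For the pooled clusters touched by neither replicate, it was 68.9 on the Het sequences and 26.4 over everything off U. The longest of the 57 measured 4.04 kb, from 8403196 to 8407235, at percentile 94.0. The next 4, from 2.98 to 3.52 kb long, began at 7673795, 8137429, 2157067 and 9450502. They made up 17 of the 222 domains up to 4 Mb (7.66%), 3 of the 112 in the trough (2.68%) and 37 of the 328 beyond 5.5 Mb (11.3%).

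Domains seen in 1 replicate were also short. The longest was 4.84 kb from 4836406 to 4841244, of which replicate 2 covered 32.4%. A further 2 of the longest 5, from 9551290 to 9555004 and from 10028423 to 10031941, were touched by replicate 2 only, over 65.8% and 37.2%. The replicate 2 clusters in them stood at percentiles 97.5 and 95.7 of their list. Those touched by replicate 1 only spanned 194758 to 198181, with 93.6% covered and percentile 23.6 in replicate 1, and 4520946 to 4524327, with 46.4% and percentile 82.6.

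The ranks of matching clusters were similar in the replicates without being the same. The pairs compared numbered 860, as many as the replicate 1 clusters on U that overlapped one of replicate 2. Where 1 cluster overlapped several, not every overlap was counted. Over these pairs, percentiles in the 2 lists differed by a median of 5.70 points, and 601 pairs or 69.9% differed by at most 10 points. Each percentile was taken within its own list, and U made up 25.3% of the clusters in replicate 1 and 30.9% in replicate 2. The scores of the pairs had a Spearman's rho of 0.72, given as a description. The 46 unmatched clusters of replicate 1 were 1863 bp long and at percentile 74.6 in the median, and the 29 of replicate 2 were 1570 bp long and at percentile 84.3. Together the unmatched clusters made up 84.8 kb in replicate 1 and 50.3 kb in replicate 2. By base pairs, 97.0% of the replicate 2 cover lay inside replicate 1 clusters, and 93.1% of the replicate 1 cover lay inside replicate 2 clusters.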

How the data were processed

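H3K9me2 ChIP-seq cluster lists of Oregon-R embryos were analysed, 1 for each of 2 ChIP replicates and 1 for the replicate set. The submitters' processing notes name Bowtie 0.12.7, and the build is FlyBase release 5, per the file headers. For the caller, its threshold, read filters and the way replicates were combined, the details were not given in the sources used here. The score of a cluster was deposited by the authors without a stated scale, and it was used only to rank clusters within a list. Depth is unknown, and whether depth or threshold affected the lengths and splits was not tested.

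Clusters were trimmed at the end of a sequence, which changed none on U, and their overlaps were computed per base in Python 3.11.15 (numpy 2.4.6, scipy 1.17.1, figures with matplotlib 3.10.9). An overlap of 1 bp counted as touching. Clusters were assigned to windows by midpoint, while covered shares count every base. The interval functions were tested on simulated lists. The members and rules were chosen with earlier results of these data known, and the 3 stretches and the 100 kb tiles after the windows were seen. Domains named are the 10 longest, 10 highest and 5 lowest in score, 5 with the most parts, 5 longest seen in 1 replicate, 5 longest seen in neither, the 5 longest uncovered stretches and the extreme windows. Alternatives were keeping only clusters in the upper 50% by score, the pooled list, merging neighbours under 1 kb apart, other windows, a 50% overlap and leaving out a replicate. Others, named for an exception, were chosen after their values were seen. Genes were not analysed, because the available gene table uses release 6 coordinates.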

Additional observations from a re-analysis of the deposited data

How the results depend on the processing

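The lists give no read depth, and scores carry no stated scale. Values are called moved when they left the SD of the replicates, for shares of domains the 95% Wilson interval, and for the Jaccard index a margin of 0.01. The Wilson interval treats domains as independent and served here as a margin only. Without trimming at the end of U nothing changed. The pooled list moved the covered share to 82.6%, the median length to 7536 bp and the median score percentile to 88.8. It also moved the range across 500 kb windows to 40.5 percentage points against 43.3, and the median distance between clusters to 1219 bp. A percentile depends on the other clusters of its list. U made up 15.5% of the pooled clusters, against 25.3% in replicate 1 and 30.9% in replicate 2, and the effect of this was not tested. Merging clusters closer than 1 kb gave a median length of 8465 bp, a median distance of 3271 bp, 30.5% of pooled domains split in at least 1 replicate and 94.0% touched by both. When each list was restricted to its upper 50% by score, the median percentile was 65.5, which follows from the removal of the lower scores, the median distance 1450 bp, the share touched by both 83.8% and the Jaccard index on U 0.885, against 0.905 in full. The window range was 59.0 points in windows of 250 kb, 36.7 in windows of 1 Mb and 51.1 in windows shifted by 250 kb, as windows of other sizes and limits average differently. Other causes were not tested. The trough from 4 to 5.5 Mb had the lowest cover of the 3 stretches in the upper 50% by score, in each replicate alone and in the pooled list, between 51.2% and 58.5%. This is no independent check, because its limits were set on the windows of these same lists. The upper 50% by score also left out few U clusters, 24 of 906 in replicate 1, 62 of 1000 in replicate 2 and 8 of 662 in the pooled list. Counting splits in 1 replicate alone, added after the data were seen, gave 27.9% to 32.6% against 37.9% in either. With 2 replicates, leaving 1 out cannot move their mean by as much as 1 SD, so it is no check of stability. No paired analysis was possible because neither input comes with clusters and only 1 group is left.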

Other observations

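The values below were chosen after the data were seen. The pooled domain from 9139948 to 9185903, 46.0 kb long, stood at percentile 44.2 with a score of 0.639, while the next lowest pooled domain of 10 kb or more, from 3229542 to 3251463, was at percentile 67.5. It consisted of 7 clusters in replicate 1 and 6 in replicate 2. A replicate 2 cluster in it, 13.8 kb from 9140011 to 9153823, had the lowest score of all replicate 2 clusters on U, 0.473 at percentile 0.525 of that list. The highest-scoring clusters in the same domain stood at percentile 94.1 in replicate 1 and 87.6 in replicate 2.

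On 2 occasions pooled domains abutted with no base between them. At 2651477 a domain of 7.08 kb with a score of 2.21 met one of 2.82 kb with a score of 0.618, and at 2839531 a domain of 9.13 kb with a score of 2.17 met one of 1.49 kb with a score of 2.92. In both replicates no such pair occurred on U.

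Exactly equal scores were frequent among replicate clusters on U. In replicate 2, 257 of 1000 clusters shared their score with another U cluster, and 13 of them had the score 3.28. In replicate 1 it was 116 of 906, and in the pooled list 40 of 662. The shares on U were 25.7%, 12.8% and 6.04%, against 5.29%, 2.77% and 5.25% on the Het sequences and 23.0%, 13.7% and 19.3% over everything off U. The clusters that shared a score were short, with medians on U of 2445 bp in replicate 2, 2398 bp in replicate 1 and 2033 bp in the pooled list, against 5820, 6254 and 8241 bp for those that did not.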
